A study of Homo sapiens with 3 samples.

Results

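The zinc finger genes of human chromosome 19 were examined for promoter peaks of Strawberry Notch 1 (SBNO1), of the general transcription factor subunit TAF4 and of control immunoglobulin (IgG). Members were all GENCODE 44 protein-coding genes of chromosome 19 whose symbol begins with ZNF followed by a digit, which gave 249 genes. Of these, 248 had at least 1 transcription start site (TSS) of a protein-coding transcript and could be counted. The readthrough gene ZNF625-ZNF20 had no such site. The same count was made for all 19689 protein-coding genes with a protein-coding TSS, 1184 of which were other genes of chromosome 19. A gene was called bound when a peak lay within 1 kb of any of its protein-coding TSS, measured from the nearest edge of the peak, and every gene in reach of a peak was counted.

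The data were 3 deposited peak lists, 1 for each antibody, from chromatin immunoprecipitation sequencing (ChIP-seq) in HuCCT1 cells (HUCCT1 in the labels), a human line from a cancer of the bile ducts (cholangiocarcinoma). The cells were fixed with formaldehyde and untreated otherwise as far as the labels say, and all 3 groups share this background, so that the antibody alone distinguishes them. According to the study's methods, immunoprecipitates of several biological replicates were pooled before sequencing. Each antibody is therefore 1 library from 1 cell line, no spread between replicates can be given, and no difference was tested. The lists held 16147 SBNO1, 12763 TAF4 and 1598 IgG peaks with a score but no read numbers, and the depth behind each peak is unknown. Intervals are exact Clopper-Pearson intervals at 95% and cover counting error over genes only, because genes are not replicates of a condition.

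Most KRAB zinc finger proteins carry a KRAB domain near the start of the protein and an array of C2H2 zinc fingers that reads DNA. The KRAB domain recruits the corepressor TRIM28, which brings in histone methylation and HP1 proteins, and many of these repressors bind transposable elements. The genes arose by repeated duplication, lie in clusters along chromosome 19 and are known to carry repressive chromatin over their 3′ ends while their promoters can stay active. TAF4 is a core subunit of TFIID, the complex that recognises promoters for RNA polymerase II, and SBNO1 is a helicase-like protein of the Strawberry Notch family.

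Promoter sequences of 6 members are printed to show what the peak classes look like at the DNA level. Each is the 300 bases from 250 before to 50 after a TSS, read 5′ to 3′ along the gene from the hg38 reference, the build of the peaks. Capitals mark exact matches, on either strand, to CCAAT (the NF-Y element), GGGCGG (the GC box of SP and KLF factors), CCGGAA (the core of ETS factor sites), TATAAA (the box bound by TATA-binding protein), TGANTCA (the element of AP-1 dimers), AANATGGC (the element of YY1) and TCTCGCG (an element of promoters rich in CpG), and matches may overlap. ZNF524 ranked highest among members with both peaks:
ZNF524, chr19:55599772-55600071, plus strand: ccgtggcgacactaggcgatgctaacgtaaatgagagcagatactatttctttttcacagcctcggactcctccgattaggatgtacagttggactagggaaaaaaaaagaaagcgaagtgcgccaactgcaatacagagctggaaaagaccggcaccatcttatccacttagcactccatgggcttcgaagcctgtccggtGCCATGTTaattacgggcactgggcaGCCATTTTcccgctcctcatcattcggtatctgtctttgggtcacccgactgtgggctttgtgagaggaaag
ZNF57 and ZNF77 ranked highest among members with a TAF4 peak alone and show repeated CCAAT boxes:
ZNF57, chr19:2900678-2900977, plus strand: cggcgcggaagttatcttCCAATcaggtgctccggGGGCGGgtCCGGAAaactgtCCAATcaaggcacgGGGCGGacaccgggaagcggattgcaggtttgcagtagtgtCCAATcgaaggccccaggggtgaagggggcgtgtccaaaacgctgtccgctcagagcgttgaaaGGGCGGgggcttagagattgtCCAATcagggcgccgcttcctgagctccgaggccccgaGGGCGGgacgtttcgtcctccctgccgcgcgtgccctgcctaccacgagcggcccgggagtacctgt
ZNF77, chr19:2944922-2945221, minus strand: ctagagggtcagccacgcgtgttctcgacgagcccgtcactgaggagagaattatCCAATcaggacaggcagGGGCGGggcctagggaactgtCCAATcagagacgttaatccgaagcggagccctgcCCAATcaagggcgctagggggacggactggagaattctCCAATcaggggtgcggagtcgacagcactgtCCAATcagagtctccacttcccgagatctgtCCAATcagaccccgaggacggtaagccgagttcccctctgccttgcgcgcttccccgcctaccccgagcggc
ZNF226 and ZNF302 ranked highest among members with an SBNO1 peak alone:
ZNF226, chr19:44164823-44165122, plus strand: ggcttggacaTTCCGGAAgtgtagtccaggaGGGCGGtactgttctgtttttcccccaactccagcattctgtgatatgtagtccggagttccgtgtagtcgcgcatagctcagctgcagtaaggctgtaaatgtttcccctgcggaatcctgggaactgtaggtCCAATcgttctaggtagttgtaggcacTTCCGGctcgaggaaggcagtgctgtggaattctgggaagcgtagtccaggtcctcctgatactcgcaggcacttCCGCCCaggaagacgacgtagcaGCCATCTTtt
ZNF302, chr19:34677389-34677688, plus strand: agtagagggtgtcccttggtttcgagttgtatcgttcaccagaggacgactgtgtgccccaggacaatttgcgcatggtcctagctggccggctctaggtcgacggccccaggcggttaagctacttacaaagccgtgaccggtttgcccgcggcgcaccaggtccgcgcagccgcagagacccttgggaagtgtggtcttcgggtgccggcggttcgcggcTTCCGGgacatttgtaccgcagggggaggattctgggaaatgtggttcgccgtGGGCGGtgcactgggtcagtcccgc
ZNF101 is the first member of a cluster in which no promoter had a peak:
ZNF101, chr19:19668546-19668845, plus strand: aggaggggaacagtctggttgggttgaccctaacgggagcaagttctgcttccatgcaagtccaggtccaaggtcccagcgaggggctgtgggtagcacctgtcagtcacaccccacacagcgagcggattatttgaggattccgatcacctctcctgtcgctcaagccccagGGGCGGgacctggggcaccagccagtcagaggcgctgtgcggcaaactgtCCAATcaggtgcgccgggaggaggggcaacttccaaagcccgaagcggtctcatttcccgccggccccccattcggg

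Promoter peaks were less frequent at the zinc finger genes than at protein-coding genes in general. SBNO1 peaks lay at 23 of 248 members, a share of 9.27% (interval 5.97 to 13.6), whereas 25.7% of all protein-coding genes had one. TAF4 peaks lay at 40 members, or 16.1% (11.8 to 21.3), against 31.9% of all genes. No member had an IgG peak, which allows a share of up to 1.48%, while 1.41% of all genes had one. The remaining genes of chromosome 19 were close to the genome, with 25.2% bound by SBNO1, 31.0% by TAF4 and 1.27% by IgG. ZNF genes on other chromosomes were bound at 23.5% (62 of 264 genes, 18.5 to 29.1) for SBNO1 and 34.5% (91 genes, 28.8 to 40.5) for TAF4. Thus the lower share was measured at zinc finger genes of chromosome 19 and not at those elsewhere, and the intervals of these gene sets did not overlap for either protein.

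**Figure D1:**
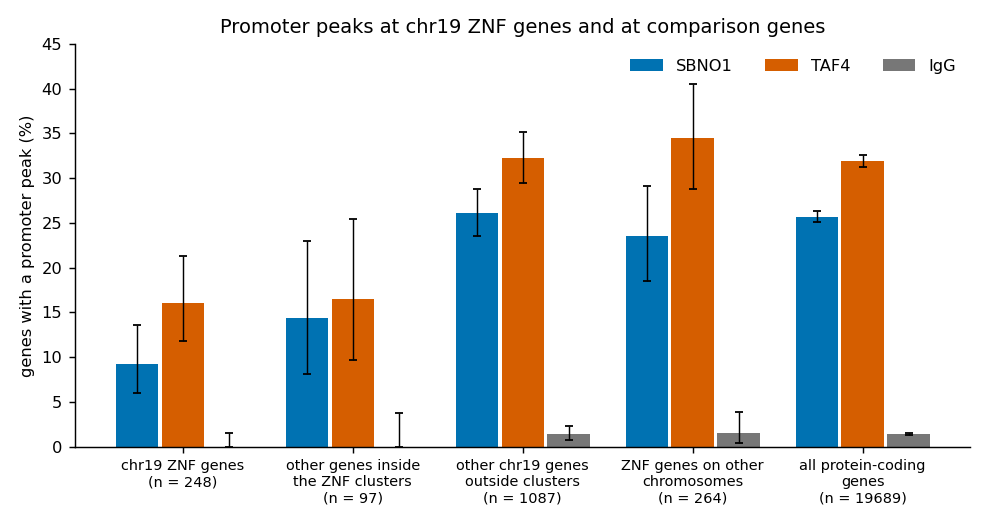
Share of genes with a promoter peak (y axis, percent) in 5 gene sets (x axis) for SBNO1, TAF4 and IgG, with 95% Clopper-Pearson intervals over genes as error bars and 1 library per antibody. The zinc finger genes of chromosome 19 stand at 9.27% for SBNO1 and 16.1% for TAF4, lower than all protein-coding genes (25.7% and 31.9%), and have no IgG peak.

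In all, 50 members (20.2%) had a peak of either protein. Both proteins were found at 13 members, TAF4 without SBNO1 at 27, and SBNO1 without TAF4 at 10, which left 198 members without a peak. Only peaks within 1 kb of a protein-coding TSS were counted, so their place near a start site follows from the call. Of the 23 SBNO1 peaks at members 20 covered the TSS (87.0%), and of the 41 TAF4 peaks 37 did so (90.2%). Among promoter peaks of other genes, 80.5% and 85.8% did so. The median peak centre was displaced upstream by a short distance, at -88.0 bp for SBNO1 and -60.5 bp for TAF4. By the annotation of the member's own protein-coding transcripts, 18 of 23 SBNO1 peak centres lay outside the gene, 2 in an untranslated exon and 3 in an intron. For TAF4, counted once for each gene in reach, 23 of 42 centres lay outside the gene, 11 in an untranslated exon and 8 in an intron. None was centred in a coding exon.

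Among the 13 members with both peaks, every SBNO1 peak overlapped a TAF4 peak, and the shorter peak lay wholly within the longer one in 10. The centres of the paired peaks were 32.0 bp apart in the median. ZNF524 had the widest SBNO1 peak of all members, 944 bp at the highest score the lists allow (1000), and a TAF4 peak of 890 bp with a score of 757. Its SBNO1 centre lay farther from the TAF4 centre than in any other pair, by 334 bp, and both peaks also reached the start of FIZ1, a neighbouring zinc finger gene without a ZNF symbol. ZNF547 had an SBNO1 peak of 218 bp (score 1000) inside a TAF4 peak of 420 bp (score 883), with centres 3 bp apart. ZNF225 had an SBNO1 peak of 197 bp that ended 19 bp from the start site, within a TAF4 peak of 363 bp that covered it. At ZNF414 and ZNF566 narrow SBNO1 peaks of 161 and 160 bp at score 1000 lay within TAF4 peaks of 605 bp (score 690) and 265 bp (score 928).

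At ZNF792 the peaks lay away from the 5′ end of the gene. The SBNO1 peak (346 bp, score 1000) and the TAF4 peak (420 bp, score 623) covered a second, internal start site. The ZNF225 peaks also lay at an internal start, in an intron of the longer transcripts. The highest-ranked peak lay within 1 kb of the 5′ start in 40 of the 50 bound members, and at a start farther inside the gene in the other 10.

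Members with TAF4 alone were the largest bound class. The 6 with the highest scores all reached 1000. By the definition of the class, none had an SBNO1 peak in reach. ZNF57 and ZNF77, neighbours in the most distal short-arm cluster, had TAF4 peaks of 379 and 349 bp over their start sites, and the nearest SBNO1 peak to ZNF77 was 5420 bp away. ZNF627 had a peak of 323 bp at an alternative start inside the gene, ZNF766 one of 277 bp, ZNF700 one of 269 bp and ZNF749 one of 247 bp. One TAF4 peak was shared by a pair of members. It covered 447 bp at chr19:36214890-36215336 with a score of 510 and spanned the start sites of ZNF565, on the minus strand, and of ZNF146, on the plus strand, which encodes a protein made almost wholly of zinc fingers. Over the 27 members of this class, the distance to the nearest SBNO1 peak ranged from 1.25 to 472 kb with a median of 66.5 kb.

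SBNO1 alone was found at 10 members, and their nearest TAF4 peak lay 11.5 to 297 kb away (median 106 kb). ZNF226 (246 bp) and ZNF302 (205 bp) had SBNO1 peaks at score 1000. ZNF223 had a peak of 324 bp (score 989), ZNF235 one of 243 bp (score 824), ZNF776 one of 277 bp (score 738) and ZNF260 one of 312 bp (score 734). All 6 of these peaks covered the start site. ZNF223, ZNF226 and ZNF235 lie in 1 cluster on the long arm, among members with TAF4 alone (ZNF155, ZNF284) and with both proteins (ZNF225), so that neighbouring paralogs fell into different classes.

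**Figure D2:**
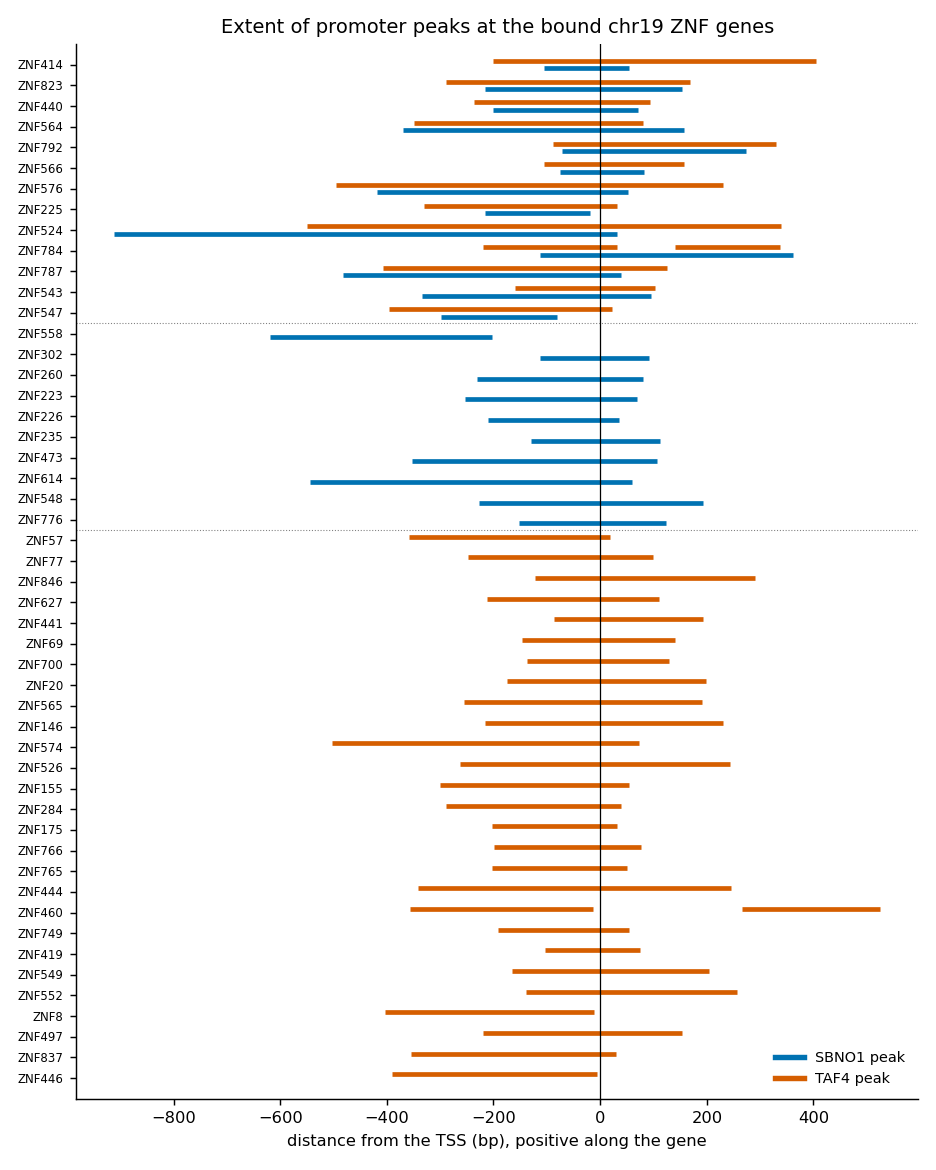
Extent of every SBNO1 and TAF4 promoter peak at the 50 bound members (rows, in chromosome order within each class), as distance in bp from the TSS with the highest-ranked peak (x axis, positive along the gene). Dotted lines separate the 13 members with both peaks, the 10 with SBNO1 alone and the 27 with TAF4 alone, and most bars span the start site, as 20 of the 23 SBNO1 and 37 of the 41 TAF4 peaks covered one.

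The deposited score is capped at 1000 and its scaling is not stated, so it was read only as a rank within a list. SBNO1 peaks at members had a median score of 790 and a median width of 346 bp (160 to 944), with 8 of 23 at the cap (34.8%). SBNO1 promoter peaks of other genes had a median score of 850 and a width of 420 bp, with 32.2% at the cap. TAF4 peaks at members had a median score of 829 and a width of 371 bp (178 to 890), with 12 of 41 at the cap (29.3%), against 1000, 419 bp and 50.2% at other genes. Score and width moved apart. Member peaks at the cap were narrower, at a median of 212 bp for SBNO1 and 273 bp for TAF4, than those below it, at 421 and 386 bp, so that a high score cannot be read as a broad peak. None of the 23 SBNO1 and 41 TAF4 peaks at members overlapped an IgG peak. At other genes 236 of 4768 SBNO1 and 232 of 6001 TAF4 promoter peaks did, shares so low that the absence at members does not set them apart.

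The sharing of promoters by the SBNO1 and TAF4 lists was lower at the members than at all protein-coding genes. TAF4 was present at 13 of 23 SBNO1-bound members, or 56.5% (34.5 to 76.8), against 88.0% of all SBNO1-bound protein-coding genes. In the other direction SBNO1 was present at 13 of 40 TAF4-bound members, or 32.5% (18.6 to 49.1), against 70.9% of all TAF4-bound genes. The other bound genes of chromosome 19 had 85.2% and 69.2%. ZNF genes on other chromosomes had 85.5% (74.2 to 93.1) and 58.2% (47.4 to 68.5). These intervals overlap those of the members only at their ends in both directions. Such an overlap does not decide whether the sets differ, and the difference from ZNF genes elsewhere was not tested. At none of the 13 members with both peaks did both scores reach the cap, since SBNO1 was at the cap in 6 of them and TAF4 in 3 others. Among 4437 other genes with both peaks, both reached it in 27.6%. The low sharing rests on 23 and 40 genes in a pair of unreplicated lists, and a promoter just under the peak threshold of one list is counted as unshared.

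Along the chromosome, 234 of the 248 members fell into 10 clusters, defined as runs of at least 5 members with at most 500 kb between neighbours. Bound members were spread over 9 of the clusters. From the short-arm end, the cluster from ZNF554 to ZNF77 had 2 of 5 members bound, both by TAF4 alone, and that from ZNF414 to ZNF846 had 3 of 14. In the cluster from ZNF653 to ZNF791, 8 of 25 members had TAF4 (32.0%, 14.9 to 53.5), and 3 of these also had SBNO1. On the long arm, ZNF302 to ZNF792 had 2 of 5 members bound, and ZNF565 to ZNF573 had 4 of 26. In the cluster from ZNF575 to ZNF180, SBNO1 was at 5 of 23 members (21.7%, 7.46 to 43.7) and TAF4 at 4 (17.4%, 4.95 to 38.8). In the large cluster from ZNF175 to ZNF331, 1 of 40 members had SBNO1 and 3 had TAF4, although the cluster from ZNF264 to ZNF446, of similar size, had 4 and 11 of 43. Between these lay ZNF628 to ZNF835, with 3 of 16 members bound by both proteins and 1 by TAF4 alone. Intervals of most clusters overlapped, and their order is not resolved.

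**Figure D3:**
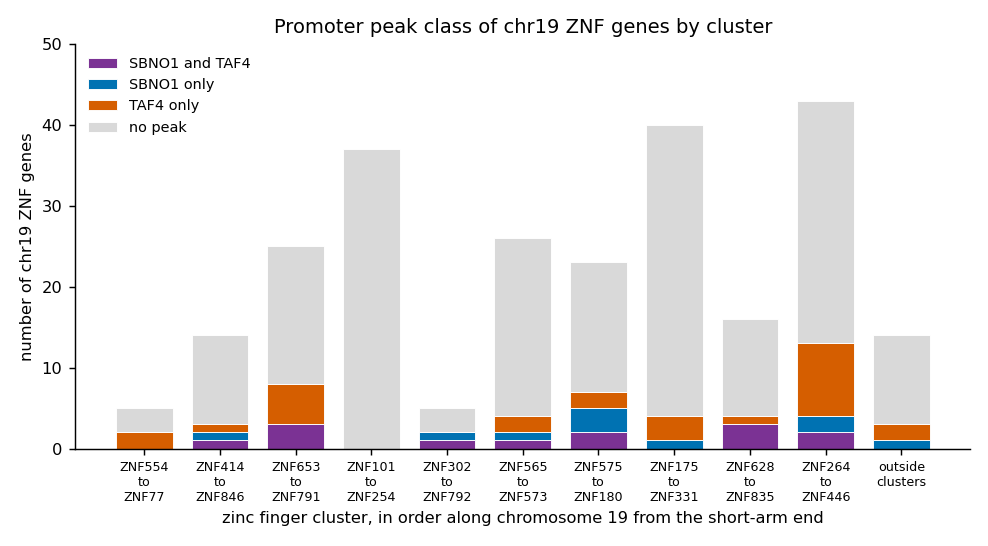
Number of members (y axis) with both peaks, with SBNO1 alone, with TAF4 alone and without a peak in each of the 10 zinc finger clusters in chromosome order and in the 14 members outside clusters (x axis). The 37 members from ZNF101 to ZNF254 have no peak, while 13 of the 43 members from ZNF264 to ZNF446 have one.

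The cluster from ZNF101 to ZNF254 was the only cluster without a bound member. None of its 37 members had an SBNO1, TAF4 or IgG promoter peak, which allows a share of up to 9.49% for each. For SBNO1 this interval overlaps that of every other cluster. For TAF4 it overlaps all but those of ZNF653 to ZNF791 (14.9 to 53.5) and ZNF264 to ZNF446 (13.5 to 41.2). The cluster is the longest, 4.46 Mb at chr19:19668796-24129968, and includes ZNF91 and ZNF93, known repressors of SVA and LINE retrotransposons. Only 1 SBNO1 peak and 1 TAF4 peak fell in the whole stretch, and they overlapped each other. The SBNO1 peak at chr19:19776412-19776643 (232 bp) and the TAF4 peak at chr19:19776339-19776718 (380 bp) both had a score of 1000, lay in no protein-coding gene and were 43.3 and 43.2 kb from the nearest start site, that of ZNF14. In the 5 Mb before the cluster, each list had 52 peaks (10.4 per Mb), and 38 of 145 genes had SBNO1 and 49 had TAF4. In the 10.55 Mb after it, up to the next cluster and across the centromere, SBNO1 had 10 peaks (0.948 per Mb) and TAF4 had 17 (1.61 per Mb). Without this cluster, the share of bound members was 10.9% for SBNO1 and 19% for TAF4.

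Pooled over their length, the clusters were sparse in peaks. They cover 24.6% of chromosome 19 (14.4 of 58.6 Mb) but hold 38 of its 482 SBNO1 peaks (7.88%) and 56 of its 534 TAF4 peaks (10.5%). This is 2.64 SBNO1 and 3.88 TAF4 peaks per Mb inside the clusters, against 10 and 10.8 per Mb outside. The pooled densities include the 4.46 Mb from ZNF101 to ZNF254, with 0.224 peaks per Mb in each list, and the 2.01 Mb from ZNF175 to ZNF331, with 0.996 and 1.99 per Mb. Some clusters reached the density outside or passed it, with 11.3 SBNO1 peaks per Mb from ZNF575 to ZNF180, 12.4 TAF4 peaks per Mb from ZNF264 to ZNF446 and 2 TAF4 peaks in the short stretch from ZNF554 to ZNF77 (16 per Mb). None of the 20 IgG peaks of the chromosome lay inside a cluster. Genes without a ZNF symbol between the members also had few peaks, with SBNO1 at 14 of 97 (14.4%, 8.12 to 23) and TAF4 at 16 (16.5%, 9.73 to 25.4), against 26.1% and 32.3% of the 1087 other genes outside clusters. Of these 97 genes, 12 carry another zinc finger symbol, and none of them had SBNO1 and 2 had TAF4. The 14 members outside clusters had SBNO1 at 1 and TAF4 at 2.

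Members that lie beside another promoter had higher shares, but with intervals that overlapped those of the other members for both proteins. A TSS of another protein-coding gene lay within 1 kb at 44 members, of which 8 had SBNO1 (18.2%, 8.19 to 32.7) and 10 had TAF4 (22.7%, 11.5 to 37.8). At the 204 members without such a neighbour, 15 had SBNO1 (7.35%, 4.17 to 11.8) and 30 had TAF4 (14.7%, 10.1 to 20.3). For the other genes of chromosome 19 the corresponding shares were 45.5% and 51% with a neighbour and 18.7% and 24.6% without one, so that members were lower in both settings. Of the 23 SBNO1 peaks at members 8 also reached a gene that is no member, such as VRK3 beside ZNF473 and SCGB2B2 beside ZNF302, and 6 of the 41 TAF4 peaks did so. Whether such a peak belongs to the member or to its neighbour cannot be told apart.

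The KRAB label was checked in the proteins translated from the GENCODE coding exons. The letters EEW followed closely by LY, a core of the KRAB box, were found near the start of the protein in 176 members and not in 72. SBNO1 was at 12 members with the string (6.82%, 3.57 to 11.6) and 11 without it (15.3%, 7.88 to 25.7), and TAF4 at 24 (13.6%, 8.94 to 19.6) and 16 (22.2%, 13.3 to 33.6). The string missed some KRAB proteins, among them ZNF223, ZNF225, ZNF226, ZNF235, ZNF700 and ZNF749. A second pattern, chosen after this was seen, was met by 213 members and not by 35. It took in 38 members that lack the first string and lost 1 that has it, ZNF446, which had TAF4. Among the 35 members without the second pattern, 6 had SBNO1 (17.1%, 6.56 to 33.6) and 12 had TAF4 (34.3%, 19.1 to 52.2), with intervals that include the shares of all genes, while those with it had 7.98% (4.72 to 12.5) and 13.1% (8.92 to 18.4). ZNF414, ZNF524, ZNF784 and ZNF787 matched neither pattern and had both peaks. ZNF784 had an SBNO1 peak of 476 bp (score 492) and a pair of TAF4 peaks of 252 and 199 bp at score 1000, and ZNF787 had peaks of 522 bp (score 756) and 534 bp (score 925). Beside KRAB genes, the ZNF symbols thus take in genes that are not KRAB genes by either pattern. At least 1 C2H2 finger was found in 247 of the 248 members. The median number of fingers was 11 (3 to 18) in bound and 13 (0 to 36) in unbound members. Bound members were shorter genes, with a median length of 17.5 kb against 27.7 kb.

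Base composition was read from the 300-base window at the bound TSS, or at the 5′ start of unbound genes. Members had a median GC content of 59.0% and a CpG ratio, the observed over the expected number of CG pairs, of 0.743, close to the 61.7% and 0.741 of other protein-coding genes. In other genes a peak went with a higher CpG ratio, 0.854 with a peak against 0.583 without. In members the corresponding medians were 0.789 and 0.733, so that unbound members lay above the unbound other genes. Other protein-coding genes weighted to the GC classes of the members had SBNO1 at 30.6% and TAF4 at 36.9%, which would be 75.8 and 91.5 members, in place of the 23 and 40 found. Members with SBNO1 alone had the lowest median GC content of the bound classes (55.8%, against 59.3% with TAF4 alone and 61.7% with both), over 10, 27 and 13 genes. The cluster from ZNF101 to ZNF254 had low values, with a median GC content of 55%, a CpG ratio of 0.457 and 10 CG pairs per window, against 19 in members as a whole. Its part in the absence of peaks there was not tested.

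**Figure D4:**
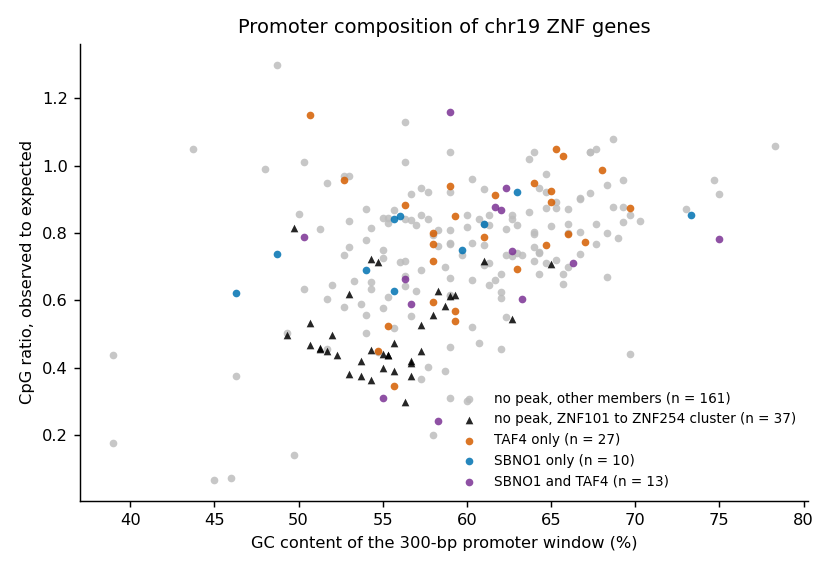
GC content (x axis, percent) and CpG ratio (y axis, observed to expected) of the 300-base promoter window of each of the 248 members, by peak class. Bound members are spread through the range of the unbound ones, and the 37 members of the cluster from ZNF101 to ZNF254 (triangles) gather at low values, with medians of 55% and 0.457.

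Among the searched motifs, the ETS core and the CCAAT box were more frequent at the members than at other genes. CCGGAA was found in 51.6% of member windows (45.2 to 58.0) and 21.1% of windows of the 19441 other genes, and CCAAT in 52.8% (46.4 to 59.2) and 36.2%. GGGCGG was found in 63.7% and 56.6%, AANATGGC in 12.5% and 7.57%, TATAAA in 6.05% and 10.1%, TGANTCA in 6.45% and 6.34%, and TCTCGCG in 4.44% and 4.88%. The ETS core went with a peak in other genes (34.4% with a peak, 14% without) but was at least as frequent in unbound members (54.0%) as in bound ones (42.0%). It was least frequent in members with both peaks (2 of 13). CCAAT was found at 20 of the 27 members with TAF4 alone (74.1%, 53.7 to 88.9), at 5 of 10 with SBNO1 alone and at 6 of 13 with both. In other genes it was found in 44.1% with TAF4 alone and in 44.1% with both, so there it did not go with TAF4 alone. The repeated boxes of the ZNF57 and ZNF77 windows above are not typical, since 9 of the 27 members (33.3%) held at least 2. CCAAT was present in all 37 windows of the cluster from ZNF101 to ZNF254, and 29 of them (78.4%) held at least 2, against 94 of 211 other members with at least 1 (44.5%) and 27 (12.8%) with at least 2. The ZNF101 window printed above holds 1 CCAAT match. The box was also present at all 5 members from ZNF554 to ZNF77, of which 2 had TAF4, at 22 of 25 from ZNF653 to ZNF791 and at 30 of 43 from ZNF264 to ZNF446. It was least frequent from ZNF302 to ZNF792 (1 of 5), ZNF575 to ZNF180 (5 of 23), ZNF175 to ZNF331 (10 of 40), ZNF628 to ZNF835 (4 of 16) and ZNF565 to ZNF573 (7 of 26). Clusters with the box at every promoter thus included one without a peak and one with TAF4. A match is a description of the letters and not a site in use.

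Peaks away from the protein-coding start sites were few in the members. The same count was not made for other genes, so a low number cannot be called particular to the members. Over the 7.93 Mb of member genes, 1 SBNO1 and 3 TAF4 peaks overlapped a member more than 1 kb from every protein-coding TSS. None of them was centred in an exon of a protein-coding transcript. ZNF507, which lies outside the clusters and has no promoter peak, had an SBNO1 peak of 478 bp (score 713) and a TAF4 peak of 275 bp (score 980) that overlapped in an intron, 27882 and 28116 bp from the nearest TSS. ZNF627 had a TAF4 peak of 248 bp in an intron and ZNF584 one of 296 bp (chr19:58401300-58401595), both at score 1000. The ZNF584 peak covered the annotated 5′ end of the gene (58401504), which is not the start of a protein-coding transcript. Its centre lay before the gene, so it is not an intronic peak. No SBNO1, TAF4 or IgG peak was centred in a last exon, where the zinc finger arrays are usually encoded.

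Paralogs can share sequence, so the share of 50-base windows that occur once in the genome was computed for each promoter window. It averaged 98.5% over members, and in 221 of 248 (89.1%) every 50-base stretch was unique, as in 90.6% of other genes. Counting only genes with fully unique windows, SBNO1 was at 10.4% of members and 27.4% of other genes, and TAF4 at 16.7% and 34.0%. In the cluster from ZNF101 to ZNF254 the mean was 98.1% and 30 of 37 windows were fully unique, with the lowest value, 72.5%, at ZNF208 and ZNF676. The windows do not cover the whole reach of 1 kb around each TSS, and the part of read placement in the lower shares was not tested.

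Promoter peaks were found at most genes of the KRAB corepressor pathway. Of 21 cofactor genes, 14 had SBNO1 (66.7%, 43.0 to 85.4) and 14 had TAF4, 13 of them the same genes, beside 25.7% and 31.9% of all protein-coding genes. This list was chosen with earlier results of these data known. TRIM28, the corepressor that the KRAB domain recruits, lies on chromosome 19 beyond the last cluster and had an SBNO1 peak of 576 bp (score 446) and a TAF4 peak of 597 bp (score 678) over overlapping stretches. SETDB1, the methyltransferase of the pathway, had peaks of 478 bp (score 523) and 395 bp (score 875). Both proteins were also found at ATF7IP, the partner of SETDB1, at the HP1 genes CBX3 and CBX5, at the remodeller gene CHD4, at the HUSH complex genes MPHOSPH8 and PPHLN1 and their partner MORC2, and at TRIM24, TRIM33, ADNP and POGZ. The SBNO1 and TAF4 peaks of POGZ did not overlap. HDAC1 had TAF4 alone and SMARCAD1 SBNO1 alone. CBX1, CHD3, HDAC2, TASOR, DNMT1 and UHRF1 had neither. CBX3 was the 1 cofactor with an IgG peak (score 871), which lay inside its SBNO1 and TAF4 peaks.

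As a check of the cell line, the biliary and epithelial marker genes KRT19, KRT8, KRT18, EPCAM and SOX9 had SBNO1 and TAF4 promoter peaks, and KRT7 had TAF4 alone. At EPCAM the SBNO1 peak (chr2:47368925-47369294) and the TAF4 peak (chr2:47345043-47345232) lay at different start sites. The TAF4 peak at chr12:52949674-52950206 was counted for both KRT8 and KRT18. The hepatocyte genes ALB, APOA1 and TTR, the leukocyte genes PTPRC and CD3E and the endothelial genes PECAM1 and VWF had none, and none of these markers had an IgG peak. A peak is not a measure of expression, and no expression data were used here.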

How the data were processed

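The members and lists were chosen with earlier results of these data known. Per the labels and methods, single-end reads of 50 bases were aligned to GRCh38.p14 with bowtie2. The methods name the caller normR, and the submitters' processing notes name Genrich 0.6.1 and Bowtie2 2.5.4. Which caller made the lists, the peak threshold, the treatment of duplicates and the use of IgG as control are not given in the sources used here. The deposited files hold positions and the authors' score, a whole number capped at 1000 with no stated scaling, and it was used only for ranking. Depth is unknown.

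TSS were taken from GENCODE 44 (78567 sites). All peaks lay within the hg38 chromosomes, and coordinates are 1-based. Peaks were joined to genes, overlaps (at least 1 bp), clusters and motifs counted, and Clopper-Pearson intervals computed with Python 3.11.15, numpy 2.4.6, scipy 1.17.1, pysam 0.24.0 and numba 0.67.0, and plots drawn with matplotlib 3.10.9. The joins were tested on simulated peaks. Proteins for the KRAB check were translated from GENCODE coding exons in place of the RefSeq proteins planned. Of each peak class the 6 members with the highest score were named, ties by width and then position, with the first and last member of each cluster, up to 10 bound members without a KRAB-like string, gene-body peaks, shared peaks and the cofactor list. FIZ1, VRK3 and SCGB2B2 are named as neighbours that share a peak. ZNF155, ZNF284, ZNF473, ZNF507, ZNF91, ZNF93, ZNF14, ZNF208, ZNF676, ZNF146 and ZNF565 were named outside the class ranks, some after their values were seen. A marker gene and some promoter sequences are not reported here.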

Additional observations from a re-analysis of the deposited data

How the results depend on the processing

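The share of bound members stayed below that of all genes in 11 of 11 settings for SBNO1 (0.276 to 0.377 times as high) and 10 of 10 for TAF4 (0.256 to 0.563). Of 107 alternative values, 91 stayed within the range set for them. This range was the Clopper-Pearson interval for shares, the interquartile range over genes for composition medians and a fixed fold range for gene-body peak counts. The 91 include the IgG shares of members, which stayed at 0%. They also include values that could not move. No member peak overlapped an IgG peak, so removing such peaks left every member value unchanged. The windows of unbound members already lay at the 5′ start, so their composition was the same with 1 TSS per gene. The tally therefore overstates how many values were put to a test. With peaks at or above the median score, 3.63% of members had SBNO1 and 5.65% TAF4, and with peaks at the cap 3.23% and 4.44%. With the median filter, 0 of 9 SBNO1-bound members had TAF4 (interval 0 to 33.6). In the other direction 0 of 14 TAF4-bound members had SBNO1 (0 to 23.2). At the cap these were 0 of 8 (0 to 36.9) and 0 of 11 (0 to 28.5). At each shared member at least 1 of the peaks lay under the median of its list. At the cap, 1800 of all protein-coding genes had SBNO1 and 3408 had TAF4, and 1224 genes other than members had both. The absence at members thus differed from genes in general at the cap, but it rests on 8 and 11 members and was not tested. With the median filter, sharing over all genes was not computed, so the absence there cannot be called particular to the members. With 1 TSS per gene, all genes had 22.3% and 28.4%, and other chromosome 19 genes had 22.5% for SBNO1. Without peaks overlapping IgG, all genes had 24.6% and 30.8%. Alternatives added after the data were seen were the GC weighting (30.6% and 36.9%), the second KRAB pattern (34.3% of members without it had TAF4), the omission of the cluster from ZNF101 to ZNF254 and the restriction to unique windows. With at most 250 kb between members there were 12 clusters, the ZNF254 cluster held 29 members and 2 clusters with 37 members had no peak, and with 1 Mb there were 9. No paired analysis was possible because only 1 library was made per antibody, and no replicate could be left out. With no read numbers, an absent peak and a weak signal cannot be told apart.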
